A study of Mus musculus with 12 samples.

Results

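The genes described here encode the protein parts of the mitochondrial respiratory chain and of ATP synthase, together with a few assembly factors of complex I that share the same name stem. Members were taken by gene symbol: all symbols starting with mt-, Ndufa, Ndufb, Ndufc, Ndufs, Ndufv, Uqcr, Cox4 to Cox8 or Atp5, without entries marked -ps, at a mean of at least 5 CPM (UMI counts scaled to the usual common total per library) over the libraries. The tables listed 31053 genes, of which 102 matched by symbol and 91 passed the level limit, 12 of them encoded in the mitochondrial genome and 79 in the nucleus.

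Oxidative phosphorylation passes electrons from complex I (NADH dehydrogenase, Nduf and mt-Nd genes) through complex III (cytochrome bc1, Uqcr and mt-Cytb) to complex IV (cytochrome c oxidase, Cox and mt-Co), and ATP synthase, or complex V (Atp5 and mt-Atp), uses the proton gradient that results. Most subunits are made from nuclear genes and imported, whereas the hydrophobic core subunits are transcribed from mitochondrial DNA by a separate RNA polymerase, as long precursor RNAs that are cut at transfer RNAs and then polyadenylated. Microglia, the resident macrophages of the brain, can shift between oxidative and glycolytic metabolism when they are activated, and the share of mitochondrial transcripts in a cell is widely used as a quality measure in single-cell work.

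The data were single-cell RNA counts from 12 libraries, each from the brain of 1 male C57BL/6J mouse at postnatal day 90, sorted for live cells positive for both CD45 and CD11b and profiled with the 10X Genomics 3′ version 2 kit. Tissue was dissociated either by cold Dounce homogenization (DNC) or by enzymatic digestion at 37 °C (ENZ), and each was done without (NONE) or with (INHIB) a cocktail of actinomycin D and triptolide, which block transcription, and anisomycin, which blocks translation. The cocktail was added from perfusion onwards, with anisomycin left out of the perfusion buffer. The 4 groups, named by both factors (such as DNC-NONE), held 3 libraries each, the labels divide the libraries into 2 batches that both hold all 4 groups, and the comparisons ask what the dissociation method and the inhibitors do to the RNA that is measured.

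Across the series 28426 barcodes held 33742845 molecules counted by unique molecular identifier (UMI). The 18830 cells kept had at least 1000 UMIs, at least 500 genes and at most 10% of UMIs from mt- genes; libraries held 855 to 2185 of them, with a median of 1153 to 1572 UMIs per cell. A total of 44 barcodes exceeded the mitochondrial limit and only 1 of these was removed by that limit alone, so the members did not choose the cells. All 8 of 8 microglial markers were detected and summed to 40433 to 44651 CPM in every library. Lists of other brain cells were far lower but not at 0, with 146 to 246 CPM for astrocytes, 45.4 to 81.3 CPM for oligodendrocytes, at most 51.7 CPM for endothelium and 18.8 CPM for neurons, and 2.34 CPM for red blood cells. The monocyte list summed to 147 to 259 CPM in DNC-NONE and to 26.5 to 169 CPM in the other 9 libraries. The border macrophage list summed to 93.8 to 304 CPM in DNC-NONE. It summed to 69.9 to 128 CPM in DNC-INHIB, 45.6 to 126 CPM in ENZ-NONE and 46.8 to 85.7 CPM in ENZ-INHIB. The neutrophil list varied within groups, with 0.400 to 2088 CPM in DNC-NONE, 3.42 to 215 CPM in DNC-INHIB, 0.459 to 10.99 CPM in ENZ-NONE and 0 to 263 CPM in ENZ-INHIB. A pair of libraries shared at most 12 barcodes.

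The mitochondrial members are shown first by their transcript ends, because the kit counts RNA from its 3′ end and the main contrast below lies between transcripts of this one genome. Coordinates are GRCm38 on the mitochondrial chromosome, plus strand, and all of these genes are a single exon without introns. mt-Nd1, a core subunit of complex I, is at chrM:2751-3707. mt-Co1, the catalytic subunit of complex IV, is at chrM:5328-6872. mt-Atp6 of complex V, at chrM:7927-8607, overlaps mt-Atp8 upstream and mt-Co3 (chrM:8607-9390) downstream, and mt-Nd4 (chrM:10167-11544) overlaps mt-Nd4l, so that reads in the overlaps cannot be given to 1 gene with certainty. mt-Cytb, the only mitochondrial subunit of complex III, is at chrM:14145-15288. The last 30 bases of 5 of them are given 5′ to 3′, with the stop codon, or the lone T that polyadenylation completes to a stop codon, in capitals.
mt-Nd1: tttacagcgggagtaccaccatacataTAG
mt-Co1: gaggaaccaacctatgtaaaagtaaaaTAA
mt-Atp6: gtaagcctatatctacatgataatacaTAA
mt-Nd4: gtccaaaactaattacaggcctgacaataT
mt-Cytb: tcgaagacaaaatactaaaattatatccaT

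Nuclear respiratory genes have scattered chromosomal positions. Their promoters often bind NRF1, a factor known for driving such genes, so the palindrome GCGCATGCGC was searched on both strands from 250 bases before to 50 bases after the RefSeq start site (GRCm38.p6), a window found for 68 of the 79 nuclear members. It occurred in 6 of 68 (8.82%) against 1.47% of 17492 protein-coding genes. All 6 are printed with 10 bases on each side and the palindrome in capitals, on the strand of the gene.
Ndufaf4 (chr4:24897960-24897989, plus): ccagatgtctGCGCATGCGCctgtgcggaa
Atp5k (chr5:108434430-108434459, minus): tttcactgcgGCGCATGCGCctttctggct
Cox6a1 (chr5:115349101-115349130, minus): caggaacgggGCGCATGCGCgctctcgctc
Uqcrc1 (chr9:108936668-108936697, plus): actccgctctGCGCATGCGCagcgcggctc
Atp5g2 (chr15:102671070-102671099, minus): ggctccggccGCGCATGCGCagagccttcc
Ndufa11 (chr17:56717692-56717721, plus): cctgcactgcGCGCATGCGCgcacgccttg

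The looser form GCGCNNGCGC, which includes these matches, was in 26.5% of the matched nuclear members and in 9.61% of all genes. AAGATGGC, the YY1 element, was in 16.2% against 3.57%, TGACGTCA, the cyclic AMP element, in 5.88% against 2.54%, and ACTTCCGG, an ETS element, in 7.35% against 5.69%. TATAAA was the only one of the 6 motifs that was less frequent in the members, 7.35% against 14.8%. These are letter matches in fixed windows and do not show that a factor binds there.

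The mitochondrial members covered a wide range of levels. Per kilobase of gene and averaged over the 12 libraries, mt-Atp6 was highest at 3471 ± 396 CPM per kb (SD, n = 12), followed by mt-Co3 at 2693 ± 207 and mt-Cytb at 1698 ± 208. mt-Nd1 followed at 1378 ± 136 CPM per kb, mt-Co1 at 870 ± 85.0, mt-Co2 at 803 ± 96.7 and mt-Nd4 at 585 ± 51.7. The remaining 5, all from complex I except mt-Atp8, were far lower: mt-Nd2 at 192 ± 20.05, mt-Nd3 at 83.5 ± 26.8, mt-Nd4l at 71.3 ± 7.99, mt-Atp8 at 48.8 ± 13.04 and mt-Nd5 at 30.5 ± 4.42 CPM per kb.

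The highest of these levels per kilobase was 114-fold the lowest, although all 12 are encoded on the same strand. A 3′ kit counts about 1 fragment per molecule whatever its length, so the division by length lowers long transcripts such as mt-Nd5. mt-Atp8 ends inside mt-Atp6 and mt-Nd4l inside mt-Nd4, so a 3′ count need not show how much RNA holds either. mt-Atp6 was the first and mt-Co3 the second per kilobase in each of the 12 libraries, mt-Nd4 the seventh and mt-Nd2 the eighth. Neighbours whose order changed between libraries were mt-Cytb with mt-Nd1, mt-Co1 with mt-Co2, and the last 4 among themselves.

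Nuclear members averaged 11.9 to 464 CPM with a median of 142 CPM. Cox4i1, the main isoform of a complex IV regulatory subunit, had 412 to 514 CPM in the 12 libraries. The tissue-restricted isoforms were at or below the limit: Cox6a2 of heart and muscle was just outside at a mean of 4.996 CPM, with the assembly factor Ndufaf5 at 4.47 CPM, while Cox4i2, Cox7a1 and Cox8b were under 1 CPM. mt-Nd6, the single mitochondrial protein gene on the other DNA strand, averaged 4.91 CPM and therefore also fell just outside. Just inside were mt-Atp8 at 9.96 CPM, Ndufaf6 at 11.9 CPM and Atp5s at 13.4 CPM.

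Summed over the members, the mitochondrial genes took about the same share of UMIs in all 4 preparations. In DNC-NONE the 12 mitochondrial members made up 1.17%, 1.05% and 0.972% of UMIs in replicates 1 to 3, and in DNC-INHIB 0.987%, 1.04% and 1.08% in replicates 4 to 6. In ENZ-NONE they made up 1.17%, 1.01% and 1.02% (replicates 4 to 6) and in ENZ-INHIB 1.24%, 1.06% and 1.09% (replicates 1 to 3). The ranges of all 4 groups overlapped, and the group means ± SD (n = 3) were 1.06 ± 0.101%, 1.04 ± 0.047%, 1.07 ± 0.091% and 1.13 ± 0.097%.

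The 79 nuclear members took a slightly larger and steadier share. DNC-NONE libraries held 1.19%, 1.22% and 1.24%, DNC-INHIB 1.14%, 1.16% and 1.19%, ENZ-NONE 1.16%, 1.19% and 1.22%, and ENZ-INHIB 1.15%, 1.22% and 1.26%. All groups overlapped here too. The log2 ratio of the mitochondrial to the nuclear sum ran from -0.35 to -0.02 in DNC-NONE, -0.21 to -0.14 in DNC-INHIB, -0.25 to 0.01 in ENZ-NONE and -0.21 to 0.11 in ENZ-INHIB, so the balance between the genomes overlapped between all preparations. Over the 6 Dounce libraries the mitochondrial share averaged 1.05 ± 0.072% and over the 6 digested libraries 1.10 ± 0.091%, a gap smaller than either SD; within batch 1 the means were 1.07% (DNC) and 1.14% (ENZ), and within batch 2 they were 1.03% and 1.06%. These sums carry no p because they run over chosen genes.

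**Figure D1:**
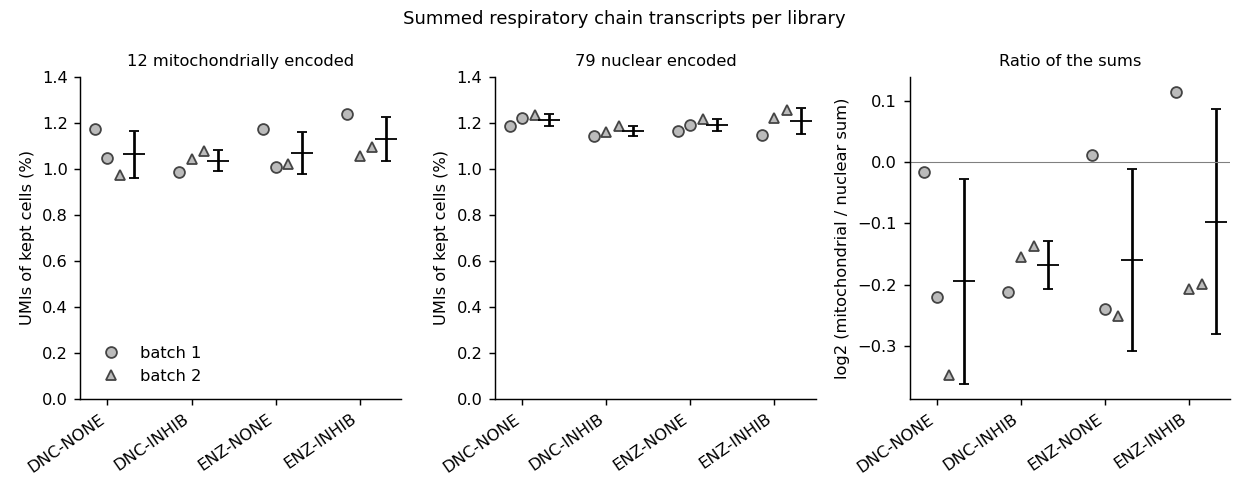
Percent of kept-cell UMIs from the 12 mitochondrial members (left) and the 79 nuclear members (middle) and the log2 ratio of both sums (right), 1 point per library with the group mean and SD (bars, n = 3), circles for batch 1 and triangles for batch 2. The mitochondrial sum runs from 0.972% to 1.24%, the nuclear sum from 1.14% to 1.26% and the log2 ratio from -0.35 to 0.11, and the groups overlap in all 3 panels.

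Within single cells the pattern was alike. The median cell had 0.892% to 1.17% of its UMIs from mitochondrial members and 1.09% to 1.22% from nuclear members, depending on the library. After each cell was thinned to 1000 UMIs, the variance of the mitochondrial count was 2.68 to 3.52 times its mean, against 1.12 to 1.66 for the nuclear count, and a variance equal to the mean is what pure counting would give. Cells therefore differed more in mitochondrial than in nuclear transcripts in each library. The median thinned counts were 9 to 12 mitochondrial and 11 to 12 nuclear UMIs, too few to read a relation between them across cells.

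Barcodes under 1000 UMIs, which were left out of the cells kept, had another balance. In these the mitochondrial share was 0.960% to 1.84%, higher than in the kept cells of the same library in 11 of 12 libraries (not in DNC-NONE replicate 3), whereas the nuclear share was 0.817% to 1.04% and lower in 12 of 12. Digested libraries reached 1.28% to 1.84% mitochondrial UMIs in such barcodes and Dounce libraries 0.960% to 1.34%, so that the groups overlapped only slightly. Unlike the kept cells, these barcodes were summed without the 10% mitochondrial limit. Over all deposited barcodes, 1 to 10 per digested library and 2 to 4 per Dounce library exceeded that limit. Their part in these differences was not tested. The comparison was chosen after the values were seen and has no test.

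Single members were compared between preparations by edgeR's quasi-likelihood test on UMI sums per library, in a single fit of all 12 libraries over 9884 genes, and called at a Benjamini-Hochberg adjusted p under 0.05. All 91 members passed the low-count filter. Because library sums were tested, fewer cells of a type and less RNA per cell cannot be told apart.

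Digestion against Dounce without inhibitors (ENZ-NONE against DNC-NONE) called 0 of 91 members, where 0.526% of all genes were called. In the same test 3 members had an unadjusted p under 0.05, all mitochondrial, and DESeq2 called 0 as well. mt-Nd1 was lower after digestion, with 1323, 1197 and 1106 CPM against 1533, 1469 and 1334 CPM, or -0.22 on the log2 scale (SE 0.087, adjusted p = 0.452). mt-Co1 was higher, by 0.20 on the log2 scale (SE 0.088, adjusted p = 0.513), and mt-Nd5, a proton-pumping subunit of complex I, by 0.30 (SE 0.139, adjusted p = 0.568). The largest absolute log2 fold change of any member was 0.30, and the medians were 0.03 for mitochondrial and 0.02 for nuclear members against 0.00 for all genes.

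With inhibitors in both arms (ENZ-INHIB against DNC-INHIB) 0 of 91 members were called by edgeR and 0 by DESeq2, and 0.223% of all genes were called. A total of 4 members had an unadjusted p under 0.05, and all were higher after digestion. mt-Co1 had 1571, 1337 and 1439.8 CPM in ENZ-INHIB against 1165, 1225 and 1288 CPM in DNC-INHIB, with no overlap, and differed by 0.25 on the log2 scale (SE 0.088, adjusted p = 0.347). Ndufb2, an accessory subunit of complex I on chr6:39592574-39603382, differed by 0.28 (SE 0.111, adjusted p = 0.455) and mt-Atp6 by 0.24 (SE 0.097, adjusted p = 0.484). Ndufb2 overlaps the annotated gene Gm42420 on the same strand, so its reads are not wholly certain. The median over nuclear members was 0.07, with 62 of 79 above 0 and none called. The share of all genes above 0 was not compared, so the count is not read as a joint rise of the members. In the same comparison the median was 0.04 for 73 cytosolic and 0.00 for 77 mitochondrial ribosomal protein genes.

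Averaged over inhibitor status, which uses 6 libraries on each side, digestion against Dounce again called 0 of 91 members by edgeR and 0 by DESeq2, against 1.63% of all genes. With an unadjusted p under 0.05 there were 7 members (7.69%), a smaller share than over all genes (12.6%). They were 5 of 12 mitochondrial and 2 of 79 nuclear genes. mt-Co1 was closest to the threshold: its 6 digested libraries had 1337 to 1571 CPM and its 6 Dounce libraries 1144 to 1399 CPM, ranges that overlap, and the estimated difference was 0.23 on the log2 scale (SE 0.062, 95% interval 0.10 to 0.35, adjusted p = 0.0623).

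The other members with a low p were mostly from the mitochondrial genome. mt-Nd5 differed by 0.28 (adjusted p = 0.169), mt-Cytb by 0.20 (adjusted p = 0.185) and mt-Atp6 by 0.16 (adjusted p = 0.305) towards digestion, and mt-Nd1 by -0.17 (adjusted p = 0.182) towards Dounce. The nuclear pair was Ndufb2 at 0.23 (adjusted p = 0.163) and Cox6a1, a complex IV subunit whose promoter carries the palindrome above, at 0.14 (adjusted p = 0.369). None of these passed the test. The 7 remaining mitochondrial members lay between -0.25 (mt-Nd3) and 0.14 (mt-Nd4l).

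mt-Co1 did pass the same test in 7 alternative settings, with adjusted p from 0.00484 to 0.0374: all barcodes, cells thinned to 1000 UMIs, no low-count filter, batch as a covariate, the replicate block, cells without macrophage or monocyte markers, and without DNC-NONE replicate 1. mt-Nd1, mt-Cytb or mt-Nd5 passed beside it in 4 of these, so that the number of members called was 0 to 3 depending on the setting. mt-Co1 did not pass by DESeq2 or when any other single library was left out. The replicate block matches libraries by number, and the numbers were not taken to pair animals.

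For the nuclear genes the intervals were narrow. A set of 22 subunits chosen by role, among them complex I core subunits such as Ndufs1, Ndufv1, Ndufs7 and Ndufs8, the complex III core proteins, the Rieske protein Uqcrfs1 and the catalytic and ring subunits of ATP synthase, had log2 fold changes from -0.07 (Uqcrfs1) to 0.09 (Atp5g2) for digestion against Dounce, with SE 0.063 to 0.119 and 0 called by edgeR. Cox4i1 had a 95% interval of -0.07 to 0.20 and Atp5b, the catalytic beta subunit, of -0.22 to 0.19. Only 1 of the 91 members, mt-Nd3, had an interval that reached a 1.5-fold difference (-0.87 to 0.37 on the log2 scale). Among complexes, all 11 nuclear complex IV genes lay above 0, with a median of 0.05 and none called, against 27 of 36 for complex I, 6 of 8 for complex III and 10 of 16 for complex V, where 57 of all 79 nuclear members did. The share of all genes above 0 was not compared here either.

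**Figure D2:**
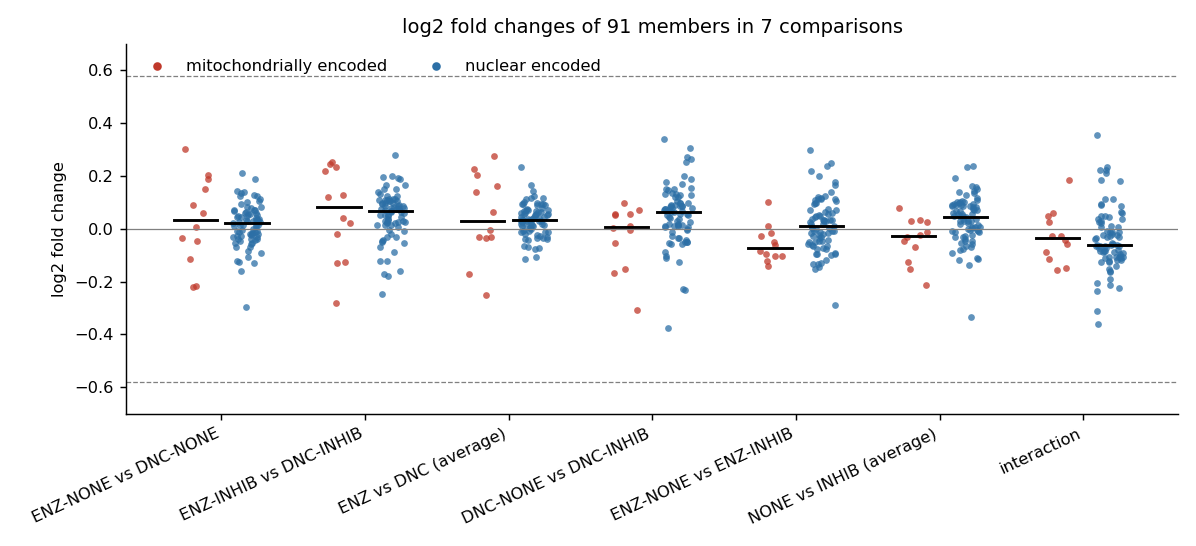
Log2 fold change (vertical axis) of each of the 91 members in the 7 comparisons of preparations, mitochondrial members in red and nuclear members in blue, with the median of each as a bar and dashed lines at a 1.5-fold difference. No member reaches a dashed line, and for ENZ against DNC the mitochondrial members spread from -0.25 to 0.28 while the nuclear median is 0.03.

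For the inhibitors no member was called either, but few of all genes were called, so this says little about the members alone. In Dounce tissue the intervals of some members, though not of most, passed a 1.5-fold difference. Examples were mt-Nd3 (-1.01 to 0.70 on the log2 scale), mt-Atp8 (-0.93 to 0.32), Ndufaf6 (-0.33 to 0.86) and Ndufaf2 (-0.80 to 0.04). For such members the data do not bound the effect below that size. Without against with inhibitors in Dounce tissue (DNC-NONE against DNC-INHIB), edgeR called 0 of 91 members and 0% of all genes, with 444 genes and 4 members under an unadjusted p of 0.05 and 0 calls by DESeq2. The 4 were Ndufa1 at 0.27, Atp5k at 0.25, Ndufb6 at 0.31 and Ndufa5 at -0.23 (each adjusted p = 1.00). In digested tissue (ENZ-NONE against ENZ-INHIB) edgeR and DESeq2 each called 0 of 91 members, and edgeR called 0.324% of all genes; the single member with an unadjusted p under 0.05 was Atp5k at 0.22 (SE 0.0999, adjusted p = 0.989), followed by Ndufs3 at 0.17 and Atp5g3 at 0.24.

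Atp5k, the e subunit through which ATP synthase dimerizes, had the lowest p of the members in digested tissue and in the inhibitor comparison averaged over both methods, and the second lowest, after Ndufa1, in Dounce tissue. It had 174, 162 and 137 CPM in DNC-NONE and 165, 160.1 and 153 CPM in ENZ-NONE, against 137, 120.1 and 139 CPM in DNC-INHIB and 139.5, 135 and 146 CPM in ENZ-INHIB. All but 1 of the 6 libraries without inhibitors lay above all 6 with them; that library was DNC-NONE replicate 3. Over both methods the difference was 0.24 on the log2 scale (SE 0.071, adjusted p = 0.420). In that averaged comparison 0 of 91 members were called by edgeR and 0 by DESeq2, against 0.0708% of all genes, and 3 had an unadjusted p under 0.05, the others being the assembly factor Ndufaf2 at -0.33 and Ndufa1 at 0.16. The mitochondrial members ranged from -0.21 (mt-Atp8) to 0.08 (mt-Nd5).

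Whether digestion acted differently with and without inhibitors was tested as an interaction. It called 0 of 91 members by edgeR and 0 by DESeq2, 0 had an unadjusted p under 0.05, and 0.0607% of all genes were called. The lowest p belonged to Ndufs3 at 0.22 (SE 0.131, adjusted p = 1.00), Ndufb6 at -0.31 and Ndufb8 at -0.20. For 10 members the 95% interval reached a 1.5-fold difference of effects, so for these the data do not bound the difference below that size. The same libraries enter several of these comparisons, which are therefore not independent.

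The make-up of the mitochondrial pool separated the methods where its size did not. The ratio of mt-Co1 to mt-Nd1 UMIs was 0.913, 0.874 and 0.857 in DNC-NONE and 0.900, 0.872 and 0.908 in DNC-INHIB. It was 1.15, 1.15 and 1.25 in ENZ-NONE and 1.14, 1.15 and 1.19 in ENZ-INHIB. The 6 Dounce libraries (0.887 ± 0.022, SD) and the 6 digested libraries (1.17 ± 0.042) did not overlap, and the gap was present in batch 1 (0.874 to 0.913 against 1.14 to 1.15) and in batch 2 (0.857 to 0.908 against 1.15 to 1.25). Inhibitors did not separate libraries on this ratio.

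The ratio was picked after the values were seen and is given without a test. For scale, 7 of the 21 ratios that can be formed among the 7 mitochondrial members of at least 500 CPM did not overlap between the methods (33.3%), where 1.69% of all 27730 ratios among the genes of that level did not. The 7 share genes and are not separate findings: mt-Co1, mt-Co3, mt-Cytb and mt-Atp6 over mt-Nd1, and mt-Co1, mt-Co3 and mt-Cytb over mt-Nd4. As shares of mitochondrial UMIs, mt-Co1 held 11.7% to 12.3% in Dounce and 12.6% to 13.7% in digested libraries, and mt-Nd1 held 13.1% to 14.02% in Dounce and 10.8% to 11.9% in digested libraries. The shares of the 10 other mitochondrial members overlapped.

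The separation did not hinge on the cell filter. The mt-Co1 to mt-Nd1 ratio was 0.880 to 0.915 in Dounce and 1.14 to 1.24 in digested libraries over all barcodes, 0.832 to 0.909 against 1.14 to 1.24 after thinning, and 0.862 to 0.945 against 1.10 to 1.19 in the barcodes under 1000 UMIs. Without the cells that carry macrophage or monocyte markers it was 0.797 to 0.878 against 1.10 to 1.19. Within those marker cells the ratio was higher and the ranges overlapped, 1.91 to 2.50 against 1.45 to 3.50. The overlap came from ENZ-INHIB replicate 3 alone, and the other digested libraries had 2.80 to 3.50. Counts were small there, with 20 to 103 mt-Nd1 UMIs per digested library.

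mt-Co1 and mt-Nd1 differ in how uniquely their reads map. Of the windows of 98 bases, the read length, in the last 400 bases of mt-Co1, 100% also occur in annotated nuclear copies of mitochondrial DNA, and the value was 99.0% for mt-Atp6, 99.7% for mt-Co3 and 99.0% for mt-Co2. It was under 5% for mt-Nd1, mt-Nd4, mt-Nd5, mt-Cytb and mt-Atp8. The part of such shared sequence in the make-up difference was not tested.

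**Figure D3:**
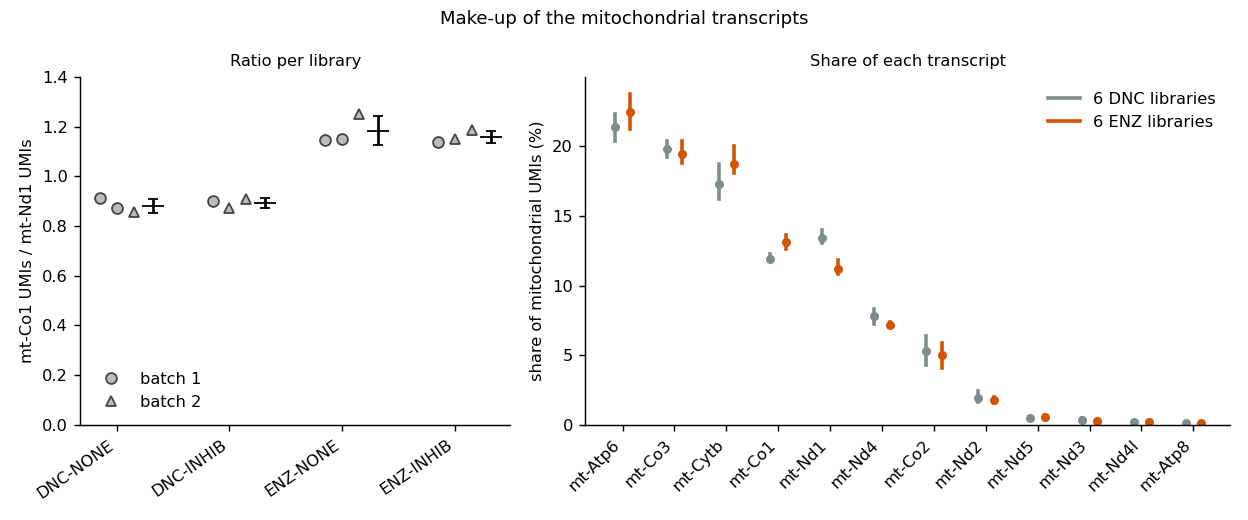
Left, ratio of mt-Co1 to mt-Nd1 UMIs in each library with the group mean and SD (bars, n = 3), circles for batch 1 and triangles for batch 2; right, share of each transcript in the mitochondrial UMIs (%), as the mean (point) and range (line) of 6 libraries per method. Dounce libraries lie at ratios of 0.857 to 0.913 and digested libraries at 1.14 to 1.25, and on the right the ranges are apart for mt-Co1 and mt-Nd1.

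More members differed between the batches than between preparations. In a fit with batch as a covariate, added after the data were seen, edgeR's quasi-likelihood test called 12 of 91 members higher in batch 2 and 0 lower (Benjamini-Hochberg adjusted), where 3.47% of all genes were called; at an unadjusted p under 0.05 there were 29 higher and 3 lower, and DESeq2 called 11 higher and 0 lower. mt-Nd3, a small complex I subunit, had 17.1 to 26.4 CPM in the 6 batch 1 libraries and 26.4 to 44.5 CPM in the 6 batch 2 libraries, 0.79 higher on the log2 scale (SE 0.136, adjusted p = 0.000304). Uqcrb, a complex III subunit that binds ubiquinone, had 176 to 230.4 CPM against 233 to 257 CPM, 0.39 (SE 0.063, adjusted p = 0.00013). mt-Co2, the subunit that accepts electrons from cytochrome c, had 423 to 533 CPM against 570.3 to 639 CPM, 0.36 (SE 0.054, adjusted p = 5.31e-05).

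The other members called higher in batch 2 were Atp5b (0.32), Uqcrh (0.32), Atp5g2 (0.31), Uqcrc2 (0.29), Atp5h (0.29), Ndufc2 (0.26), Atp5a1 (0.25), mt-Nd2 (0.24) and Cox4i1 (0.18). By complex, the nuclear medians were 0.15 for complex IV, 0.14 for complex III and 0.13 for complex V, against 0.03 for complex I and -0.06 for its assembly factors. The mitochondrial median was -0.02, and the all-gene median -0.00. Cytosolic ribosomal protein genes moved in the same direction and further, 67 of 73 being called higher with a median of 0.34. Both batches hold every group and 3 libraries of each method, but batch 1 holds 4 libraries without inhibitors and batch 2 holds 2. What distinguishes the batches beyond their label was not tested.

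**Figure D4:**
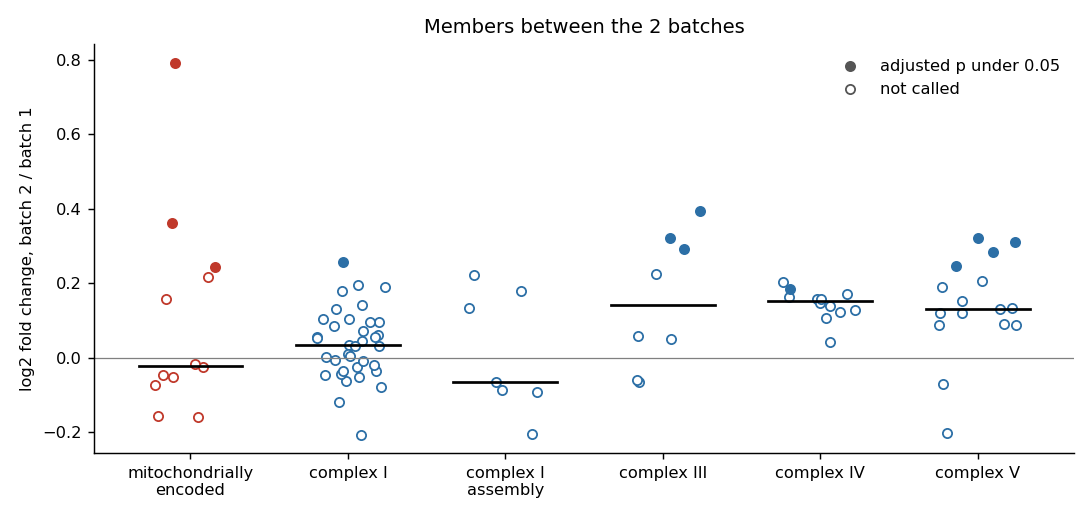
Log2 fold change of batch 2 over batch 1 for each member, mitochondrial members in red and nuclear members in blue by complex (Ndufa4 within complex IV), filled where the adjusted p is under 0.05, with the group median as a bar. All 12 filled points lie above 0, led by mt-Nd3 at 0.79, Uqcrb at 0.39 and mt-Co2 at 0.36.

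A small set of cells, here called marker cells, had higher levels of many members and not of others. These cells, 386 of the 18830 kept, held UMIs of at least 2 genes of the border macrophage list (such as Mrc1, Pf4 and Ms4a7) or the monocyte list (such as Ly6c2 and Ccr2), and made up 1.17% to 5.03% of a library, on average 3.65% in DNC-NONE, 1.62% in DNC-INHIB, 1.72% in ENZ-NONE and 1.54% in ENZ-INHIB. They were compared with the other kept cells of the same library, with the library as a block, a comparison added after the data were seen. By edgeR's quasi-likelihood test 53 of the 87 members tested were higher in marker cells and 0 were lower (3 lower at an unadjusted p under 0.05), where 36.6% of all 6242 genes tested were called, more of them lower (1405) than higher (882). The member median was 0.64 and the all-gene median -0.21 on the log2 scale.

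Among the mitochondrial members 4 of 11 were called, all higher and all in complexes IV and V. Of all genes, 36.6% were called in either direction and 882 of 6242 were called higher. mt-Co1 had 3005 ± 621 CPM in marker cells and 1290 ± 145 CPM in the others (SD, n = 12), higher in 12 of 12 libraries and by 1.32 on the log2 scale (SE 0.095, adjusted p = 1.76e-42). mt-Atp6 had 4827 ± 914 against 2285 ± 267 CPM and 1.18 (12 of 12), mt-Co2 988 ± 248 against 537 ± 65.5 CPM and 0.99 (11 of 12), and mt-Co3 0.75 (11 of 12). mt-Nd1 was not called, at 1280 ± 327 against 1319 ± 126 CPM and 0.06 (SE 0.0998, adjusted p = 0.662), nor were mt-Cytb (0.15), mt-Nd4 (0.18), mt-Nd2 (0.23) and mt-Nd5 (0.24). The ends of the called mt-Co1, mt-Atp6, mt-Co2 and mt-Co3 recur in nuclear copies. So do those of mt-Nd3 and mt-Nd4l, which were not called but had only 21 and 9 UMIs in marker cells. The part of such shared sequence was not tested.

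In the nuclear genome all 11 complex IV subunits were called higher in marker cells, with a median of 0.93. Cox7b at 1.402, Cox6c at 1.15, Cox8a at 1.09 and Cox6b1 at 1.07 led them, and Ndufa4, now known as a complex IV subunit, followed at 0.72. Complex V had 12 of 15 called (median 0.64), with Atp5e at 1.21, Atp5k at 1.18 and Atp5l at 1.17, and complex III 5 of 8 (median 0.76). Complex I had 19 of 36 (median 0.43), and its accessory subunits Ndufa1 (1.39) and Ndufc1 (1.06) were among the highest. The core subunit Ndufs1, which carries iron-sulfur clusters, was at -0.83 (adjusted p = 0.0589) and was not called. It had only 17 UMIs in marker cells. Accessory and core subunits were found on both sides: Ndufa8 and Ndufa9, both accessory, were each higher in 1 of 12 libraries, and the core subunit Ndufs7 in 9 of 12.

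The cytosolic ribosomal protein genes were all higher in marker cells as well, 73 of 73 with a median of 1.19. Marker cells were deeper in 11 of 12 libraries (median 1349.5 to 2024 UMIs per cell in the libraries, against 1144 to 1573 in the other cells). With the cells of both sets thinned to 1000 UMIs, 39 of 85 members were higher and 1 lower. With the marker rule split, border macrophage markers alone gave 11 members higher and 2 lower (median 0.08, 214 cells). Monocyte markers alone gave 27 higher and 3 lower (median 0.36, 120 cells, 10 libraries holding enough of them for the fit). The rest of the 386 marker cells met both rules or neither and were in neither fit. Both medians were below the 0.64 of all marker cells together, so the values by complex describe the mixed set. The share of all genes called in the thinned and split fits is not given here, so these counts do not set the members apart from other genes.

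**Figure D5:**
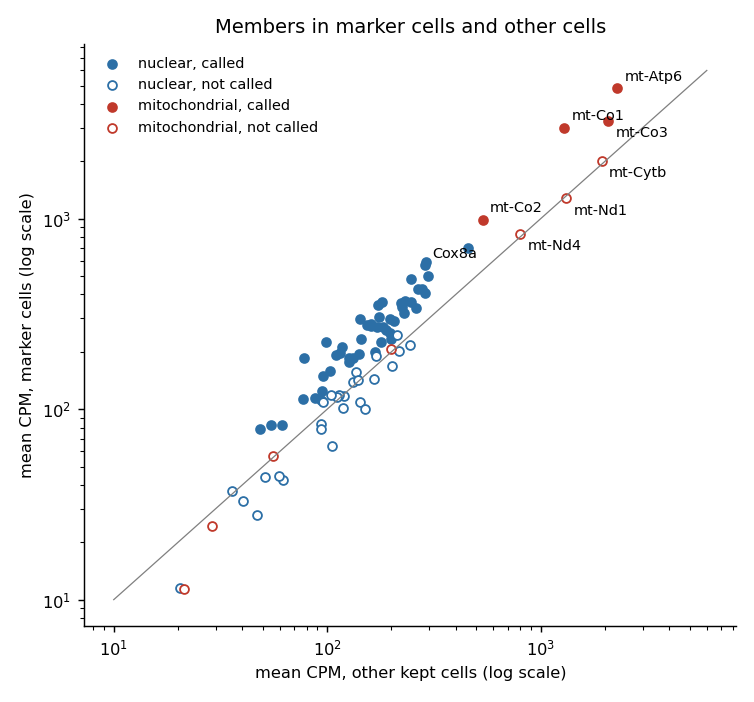
Mean CPM over 12 libraries in macrophage- or monocyte-marker cells (vertical, log scale) against the other kept cells (horizontal, log scale), 1 point per member, filled where called, with the line of equal levels. mt-Co1, mt-Atp6, mt-Co2 and mt-Co3 and the 49 nuclear members called lie above the line, and mt-Nd1 and mt-Cytb lie on it or close to it.

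Genes around the chain were read from lists by role. Across the 7 comparisons of preparations, only 1 gene of these lists was called by edgeR: Mterf1a, a mitochondrial transcription termination factor, was lower in digested libraries by the average comparison (log2 fold change -0.82, SE 0.216, adjusted p = 0.0488), 1 of 23 tested in the list for mitochondrial RNA synthesis and care. The other lists had no call in those comparisons: 10 further subunits and carriers (succinate dehydrogenase, cytochrome c and others), 33 assembly factors, 77 mitochondrial ribosomal proteins, 16 genes of the citrate cycle and pyruvate oxidation, 14 import genes, 4 regulators and 73 cytosolic ribosomal proteins. At an unadjusted p under 0.05 in the averaged digestion comparison these lists had 1, 4, 4, 0, 0, 1 and 1 genes respectively, where 12.6% of all genes had such a p and 1.63% were called.

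In marker cells, where 882 of 6242 genes were called higher and 1405 lower (36.6% in all), the mitochondrial ribosome had 18 of 73 genes higher and 0 lower, led by Mrpl33 at 2.09, the import list 5 of 13 and the further subunits 4 of 10, among them Cycs, cytochrome c, at 1.05 and Usmg5 at 1.09. The assembly list had 3 of 19 higher and 1 lower, the citrate cycle list 1 of 16 higher (Fh1, 0.94) and 1 lower (Suclg2, -1.25), and the mitochondrial RNA list 2 of 9 lower (Fastk, -1.17, and Ssbp1, -0.63). Between batches, outside the cytosolic ribosome, Cox16 (1.05) and Mrpl24 (0.31) were higher in batch 2 and Yy1 (-0.27) lower, and 0 genes of the other lists were called.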

How the data were processed

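The deposited tables held UMI counts per gene and cell barcode, 1 table for each of 12 libraries. Per the labels and the methods of the study, the authors made these counts with Cell Ranger 3.0.0 on mm10 (GRCm38); how reads shared with nuclear copies of mitochondrial DNA were assigned is not given in the sources used here. Barcodes with at least 1000 UMIs and 500 genes and at most 10% mitochondrial UMIs were kept and summed per library (18830 cells; 1062871 to 3233159 UMIs per library). Scrublet called 106 cells as doublets (0.563%), and doublets were not removed in the reported values.

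Members and gene lists were chosen with earlier results of these data known. Sums were tested with edgeR 4.0.16 (quasi-likelihood, robust, TMM, filterByExpr with 9884 genes left) in R 4.3.3, with 1 coefficient per group, and p-values were adjusted by Benjamini and Hochberg over all genes tested. Replicates were separate animals and differed by more than counting noise (chi-square over degrees of freedom 1.60 to 6.50). DESeq2 1.42.0 and the other settings listed with the closing remarks were alternatives, and the batch and marker-cell fits were added after seeing the data. The scripts were tested on simulated counts. CPM are shares of the kept UMIs, and with UMIs in place of reads the errors beyond animals cover counting only.

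Genes named were all mitochondrial members, a set of 22 nuclear subunits chosen by role (summarised), up to 12 called members per comparison by fold change, the 3 lowest unadjusted p where none was called, and called list genes up to 10. Others named were chosen after their values were seen. Gene positions and shared windows of 98 bases came from GENCODE M21 and promoters from RefSeq GRCm38.p6.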

Additional observations from a re-analysis of the deposited data

How the results depend on the processing

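The comparison of digestion with Dounce averaged over inhibitors called 0 members as reported. It called 2 with all barcodes (mt-Co1, adjusted p = 0.0193, and mt-Nd5, 0.0301), 2 with batch as a covariate (mt-Co1, 0.0081, and mt-Nd1, 0.0411), 1 with cells thinned to 1000 UMIs (mt-Co1), 2 without the low-count filter (mt-Co1 and mt-Cytb), 1 without the macrophage- and monocyte-marker cells (mt-Co1, log2 fold change 0.29), and 0 to 1 when each library was left out (1 without DNC-NONE replicate 1). With the replicate block it called 3 (mt-Co1, mt-Cytb and mt-Nd1); correlations of same-numbered libraries were -0.13 to 0.37, over 0.1 for 4 of 6 numbers, so the numbers were not taken to pair animals. The other 6 comparisons of preparations called 0 members in each setting run. Over all genes the same comparison called 161, against 327 without the filter, 280 with the replicate block, 277 with batch, 97 thinned, 80 by DESeq2 and 98 to 200 with a library left out. The 53 members called higher in marker cells became 50 higher and 3 lower without TMM. With at least 3 marker genes they became 41 higher and 2 lower (median 0.44). Border macrophage markers alone called 13 and monocyte markers alone 30. The 12 members called between batches became 8 to 13 with a library left out. These were 7 higher and 1 lower without DNC-INHIB replicate 4, and 11 higher and 2 lower without ENZ-NONE replicate 5. With all barcodes 16 were higher and 2 lower, and without TMM 8 were higher and 1 lower. The share of all genes called in these batch fits is not given here. With all barcodes 93 genes met the level limit and the nuclear share was 1.15% for DNC-NONE and ENZ-NONE and 1.13% for DNC-INHIB. Without marker cells it was 1.19% for DNC-NONE. Of 844 alternative values for single members, 797 kept direction and side of the threshold, 12 newly passed, 35 no longer passed and 0 reversed. Counts per gene, 3 animals per group and reads shared with nuclear copies limit these data.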
